A study of Homo sapiens with 4 samples.

Results

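The calpain family was followed in the stem cell fraction of MDA-MB-231, a long-established human cell line from a triple negative breast tumour, after knockdown of KDM1A. The 10 genes described were CAPN1, CAPN2, CAPN3, CAPN5, CAPN6, CAPN7, CAPN8, CAPN10, CAPNS1 and CAST, taken by symbol from the 23228 genes of the count tables. They were picked because CAPN8 rose strongly and other calpains rose in the single contrast of the study, so their fold changes and calls are a description and support nothing. By its label the control group was MDA-MB-231 carrying a lentiviral control shRNA and the other group carried a lentiviral KDM1A shRNA, each with 2 libraries. All cells had been sorted with the ALDEFLUOR assay for aldehyde dehydrogenase activity and grown in MammoCult medium. Expression of the shRNA was stable, and the labels name 1 KDM1A shRNA with no rescue. Effects of KDM1A loss, of the hairpin and of the separate cultures therefore cannot be told apart. Whether libraries of 1 group came from different cultures is not stated, so SDs, standard errors (SE) and p-values cover only how far these libraries differed, a spread that may be technical.

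Calpains are cysteine proteases of the cytosol that are switched on by calcium and cut their substrates at a few sites rather than degrading them. CAPN1 and CAPN2, the large subunits of mu-calpain and m-calpain, each pair with the small subunit encoded by CAPNS1, and calpastatin, encoded by CAST, binds and inhibits the activated pairs. In migrating cells these enzymes cut talin, spectrin and focal adhesion kinase and so act on adhesion turnover. CAPN8 is known chiefly from the surface mucous cells of the stomach, where it works with CAPN9.

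KDM1A itself was read 4660 and 4059 times with control shRNA and 561 and 649 times with KDM1A shRNA, the direction that the labels imply. Gene reads per library ranged from 23902900 to 26923678, and 3 reads, the most that a count of 0 allows, correspond to 0.112 to 0.125 CPM (read counts scaled to the library total, here adjusted by TMM). The MDA-MB-231 type markers, basal and mesenchymal genes such as VIM, AXL and CAV1, were read in 9 of 9 cases, with a summed level of 5984 to 6046 CPM in the controls and 7149 to 7244 CPM after knockdown. Of these 9 markers 6 were called higher and 3 lower, CD44 (log2 fold change −0.23), MSN (−0.16) and ANXA1 (−0.12). Over all tested genes 27.3% were called higher and 28.8% lower. PTPRC, which marks leukocytes, had at most 4 reads in any library, and the oestrogen receptor gene ESR1 was read 7 and 9 times with control shRNA and 0 and 1 times with KDM1A shRNA. The 9p21 genes CDKN2A, CDKN2B and MTAP are known to be deleted in MDA-MB-231. These 3 genes together stood at 23.2 and 25.4 CPM in the control libraries and at 1.17 and 1.32 CPM after knockdown, and all 3 fell, so both control libraries go against the known genotype of the line. The knockdown libraries also held more than 3 reads of CDKN2A (13 and 19) and MTAP (15 and 14), whose source was not tested. CDKN2B, with 27 and 31 reads against 0 and 1, passed the filter on low counts only through the control libraries. Whether the control libraries held other cells or cells of another line was not tested, and each fold change below compares libraries by their labels. The embryonic or neuronal markers were lower too, with sums of 72.5 to 77.1 CPM against 1.51 to 1.75 CPM, while ELAVL4 of that list was at 0 reads throughout. Of the 6 tested, NEFL, INA, ELAVL2 and SOX2 passed the filter on low counts only through the control libraries. No count of calls is therefore given for this list. Fibroblast markers summed to 141 to 145 CPM in the controls and 101 to 109 CPM after knockdown, a sum carried by DCN (123 to 55.0 CPM). Of the 4 tested fibroblast markers DCN was the 1 called lower and 3 were called higher, LUM (log2 fold change 2.90), PDGFRB (1.47) and COL1A1 (0.86). Luminal markers summed to 454 to 459 and 511 to 521 CPM, where KRT19 went from 284 to 369 CPM. Of the 5 tested luminal markers 2 were called higher, and XBP1 (−0.24) was called lower. TFF1 (−2.01) fell to 16 and 9 reads and FOXA1 (−1.62) to 9 and 8 reads after knockdown. FOXA1 passed the filter only through the control libraries, and TFF1 would not have passed through the knockdown libraries alone. Leukocyte markers, nearly all of it CD68 and LAPTM5, summed to 460 to 478 and 452 to 453 CPM. Behind these near-equal sums CD68 fell from 175 to 123 CPM (−0.51, called lower) and LAPTM5 rose from 294 to 329 CPM (0.16, called higher). These values lie beside every calpain result below, and their part in those results was not tested. Both controls hold the 9p21 reads, and both knockdown libraries hold fewer of them, so no result could be given without the libraries concerned.

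Positions are given on GRCh37, the hg19 build named by the submitters. CAPN8 (chromosome 1, 223711349 to 223853425, minus strand) and CAPN2 (chromosome 1, 223889295 to 223963720, plus strand) are neighbours that face away from each other, with 35870 bases between their annotated starts. The other members lie on their own, CAPN1 and CAPN5 on chromosome 11, CAPN3 on 15, CAPN6 on X, CAPN7 on 3, CAPN10 on 2, CAPNS1 on 19 and CAST on 5. Promoters are shown for CAPN8, CAPN9 and CAPN11, the calpains with the largest differences, and for CAPN2, the neighbour of CAPN8 and the most abundant member. The 250 bases before the start were taken from RefSeq (GRCh38.p14 table) and each was found once, without a mismatch, in GRCh37, which gives the positions below. Sequences run 5′ to 3′ on the gene's strand and capitals mark each CG dinucleotide (CpG). CAPN2 is shown at the inner of its 2 listed starts.
CAPN8, chr1:223853404-223853653, minus strand: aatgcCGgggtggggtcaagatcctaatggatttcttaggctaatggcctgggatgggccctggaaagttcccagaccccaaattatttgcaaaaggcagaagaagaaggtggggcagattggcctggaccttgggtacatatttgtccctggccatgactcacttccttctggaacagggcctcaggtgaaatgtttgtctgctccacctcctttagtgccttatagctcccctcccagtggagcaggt
CAPN9, chr1:230882884-230883133, plus strand: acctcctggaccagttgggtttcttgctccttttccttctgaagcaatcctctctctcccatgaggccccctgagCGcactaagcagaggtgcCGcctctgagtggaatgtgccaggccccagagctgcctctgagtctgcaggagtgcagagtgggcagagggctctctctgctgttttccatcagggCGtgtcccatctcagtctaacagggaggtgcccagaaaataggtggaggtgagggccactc
CAPN11, chr6:44126307-44126556, plus strand: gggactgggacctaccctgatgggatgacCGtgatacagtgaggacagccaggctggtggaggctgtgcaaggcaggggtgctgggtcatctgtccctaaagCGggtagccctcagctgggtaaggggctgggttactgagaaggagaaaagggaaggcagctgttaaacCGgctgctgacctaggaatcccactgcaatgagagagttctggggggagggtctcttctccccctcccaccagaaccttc
CAPN2, chr1:223899991-223900240, plus strand: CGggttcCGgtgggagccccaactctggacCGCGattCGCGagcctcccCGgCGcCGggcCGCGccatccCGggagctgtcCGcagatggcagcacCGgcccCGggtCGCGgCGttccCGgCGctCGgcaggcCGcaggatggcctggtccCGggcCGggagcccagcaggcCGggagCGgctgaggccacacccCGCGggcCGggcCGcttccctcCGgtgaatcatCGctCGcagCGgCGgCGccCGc

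The CAPN8 window holds 1 CpG, and its CpG observed over expected (the CpG count relative to that of random sequence with the same C and G) was 0.059, above only 6.7% of the 35114 promoters in the table, whose median was 0.558. CAPN9 and CAPN11 held 3 each, with 0.141 and 0.142. The inner CAPN2 window held 37 (0.954) and the outer one 1 (0.064), and counts per gene cannot tell which start was read. CAPN1 (0.675 to 0.762 over 3 starts), CAPN7 (0.851) and CAPN10 (0.979) were CpG rich, and CAPNS1 (0.473 and 0.910) was so at the outer of its starts. CAST ranged from 0.103 to 0.940 over 5 starts. A low CpG content was also found in CAPN3 (0.0 to 0.278), whose groups overlapped, and in CAPN6 (0.296), which was at or under the floor in every library. CAPNS2 (0.131), CAPN13 (0.191) and start 2 of CAPN14 (0.154) were low too, and these genes had at most 3 reads in any library. In the CAPN8 window CCAAT was found when both strands were searched (as in 32.0% of all windows), and neither TATAAA (10.7%) nor GGGCGG (42.6%) was. None of these 3 motifs was in the printed windows of CAPN9, CAPN11 and CAPN2. A window was listed for 9 of the 10 members.

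**Figure D1:**
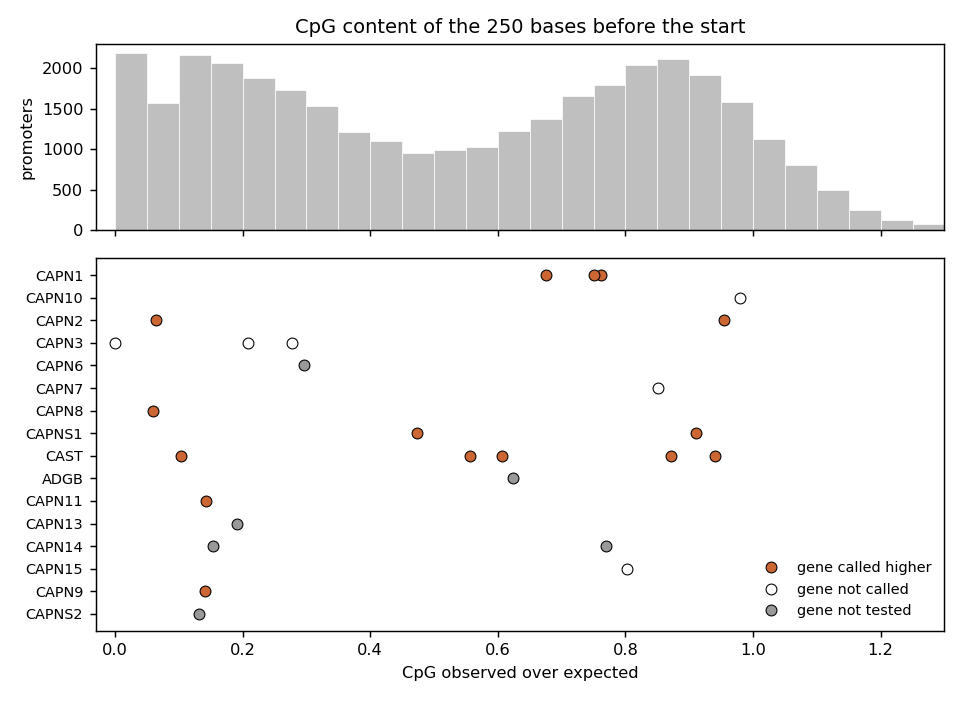
CpG observed over expected in the 250 bases before each listed start: number of promoters per bin of 0.05 over all 35114 RefSeq promoters (top) and the calpain genes, 1 point per listed start (bottom), coloured by the gene's edgeR call. CAPN8, CAPN9 and CAPN11 lie at the low end, beside starts of CAPN3, CAPN6, CAPN13, CAPN14 and CAPNS2, genes that were not called or not tested. A start of CAPN2 and a start of CAST lie there too. CAPN9 and CAPN11 passed the filter on low counts only through their knockdown libraries.

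CAPN8, a calpain of the classical build with a narrow tissue range, was read 24 and 35 times in the controls against 430 and 457 times after knockdown. The exact 95% Poisson intervals of the controls, which cover counting error only, were 15.4 to 35.7 and 24.4 to 48.7 reads. In CPM the values were 0.896 and 1.44 against 18.0 and 17.7, a mean of 1.17 ± 0.39 against 17.8 ± 0.17 (SD, 2 libraries each). Both knockdown libraries were thus far above both controls, which themselves differed from each other by more than the knockdown pair did. The log2 fold change was 3.94 (SE 0.16), or 15.2-fold. It was 3.62 without control library 1 and 4.31 without control library 2, the control in which more CAPN8 reads were found. By log2 fold change CAPN8 stood 12th of 14012 tested genes, which describes the choice of the family. By mean CPM it moved from the 9.34th to the 40.3rd percentile of the tested genes by mean CPM.

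The classical large subunits differed by much less. CAPN2, the m-calpain subunit, was the highest member, with 1138 and 1081 CPM in the controls and 1421 and 1430 CPM after knockdown (log2 fold change 0.36, SE 0.03). CAPN1, the mu-calpain subunit, had 211 and 223 CPM against 270 and 260 CPM (0.29, SE 0.04). In both genes the knockdown libraries lay above the controls without overlap.

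The shared subunit and the inhibitor stood higher by similar amounts. CAPNS1, without which neither large subunit is stable, had 367 and 370 CPM in the controls and 437 and 435 CPM after knockdown (0.24, SE 0.03). CAST had 445 and 428 CPM against 515 and 503 CPM (0.22, SE 0.04). The count of CAST may be affected by overlap with other genes. The opposite-strand gene ERAP1, an aminopeptidase named here for this overlap, shares 299 exonic bases with CAST and was higher too (0.42, SE 0.05). The sources used here do not say whether counting used strand. Reads that fell on more than 1 gene were set aside as ambiguous (0.587% to 0.593% of each file's total), so CAST reads may have been lost there.

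The atypical calpains, which lack the calcium-binding end domain of the classical ones, and the muscle enzyme moved little. CAPN7, which binds the membrane-scission machinery ESCRT-III, had 58.0 and 54.6 CPM against 60.1 and 61.9 CPM (0.12, SE 0.05). CAPN10, first known from genetic studies of type 2 diabetes, had 10.9 and 12.7 CPM against 13.5 and 13.3 CPM (0.19, SE 0.10), and it shares 654 exonic bases with GPR35. In neither gene did the groups overlap. The gap between them was smaller than the difference between the controls. CAPN5, in which dominant mutations cause an inflammatory eye disease, had 5.97 and 4.95 CPM against 6.01 and 5.66 CPM (0.09, SE 0.14). CAPN3, the calpain of skeletal muscle lost in a form of limb-girdle muscular dystrophy, had 18 and 11 reads against 14 and 10 (−0.23, SE 0.41). The groups overlapped in CAPN5 and CAPN3, and the sign of the CAPN3 difference turned without control library 1 or KDM1A shRNA library 2 and that of CAPN5 without control library 2. CAPN6, which has no catalytic cysteine and acts on microtubules, was read 0 and 2 times with control shRNA and 0 times in each knockdown library, did not pass the filter on low counts, and gives no fold change at this depth.

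**Figure D2:**
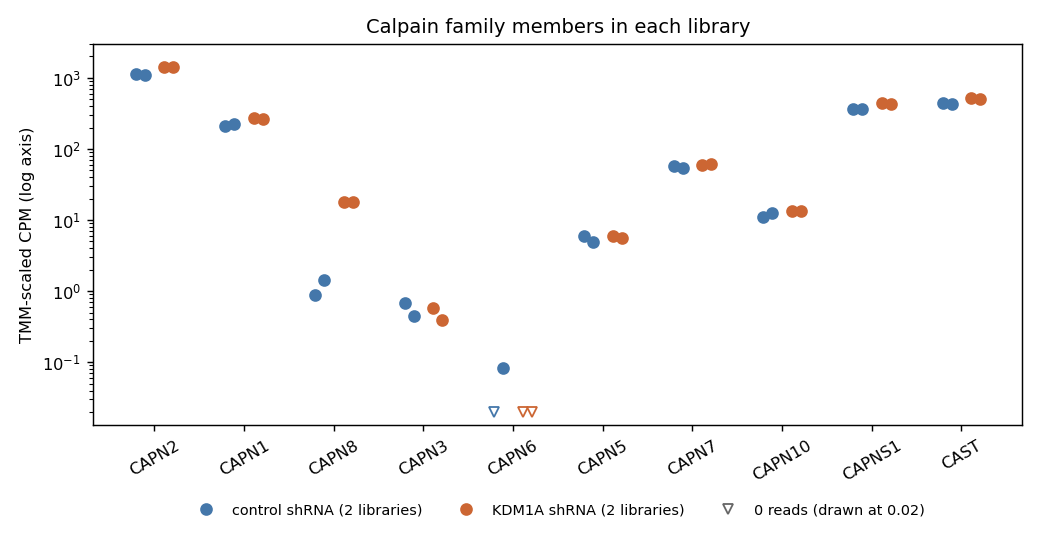
TMM-scaled CPM on a log axis for each of the 10 members, 1 point per library (2 control shRNA, 2 KDM1A shRNA); open triangles mark 0 reads. CAPN8 is the gene in which the groups lie far apart, at 0.896 and 1.44 CPM against 18.0 and 17.7 CPM, while CAPN3 and CAPN5 overlap.

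Of the 9 members that passed the filter, 5 were called higher (CAPN8, CAPN2, CAPN1, CAPNS1 and CAST) and 0 lower by edgeR at an adjusted p under 0.05, where 27.3% of all 14012 tested genes were called higher and 28.8% lower, 56.1% in all. CAPN8 alone was higher by 2-fold or more, as were 3.07% of all tested genes. In 7 of the 9 the groups did not overlap, each with the knockdown libraries higher, against 77.7% of all tested genes without overlap and 38.1% without overlap and higher. The median log2 fold change of the 9 was 0.22, beside −0.0047 over all tested genes. Since the members were chosen from this contrast, these counts are given for description only. Without control library 1 CAPN7 was also called higher, and without control library 2 CAPN10 was. The 5 calls also held with RLE, upper-quartile or library-size scaling. When the libraries were scaled so that the 9 MDA-MB-231 type markers had a median change of 0, which lowers every log2 fold change by 0.37, CAPN8 stayed called higher at 3.57, whereas CAPN2 came to −0.0091, CAPN1 to −0.081, CAPNS1 to −0.13, CAST to −0.15 and CAPN7 to −0.25, the last 3 called lower. With the 275 genes lower by 16-fold or more left out of the fit, CAPN8 had 3.93 and the same number of members, 5, was called higher.

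**Figure D3:**
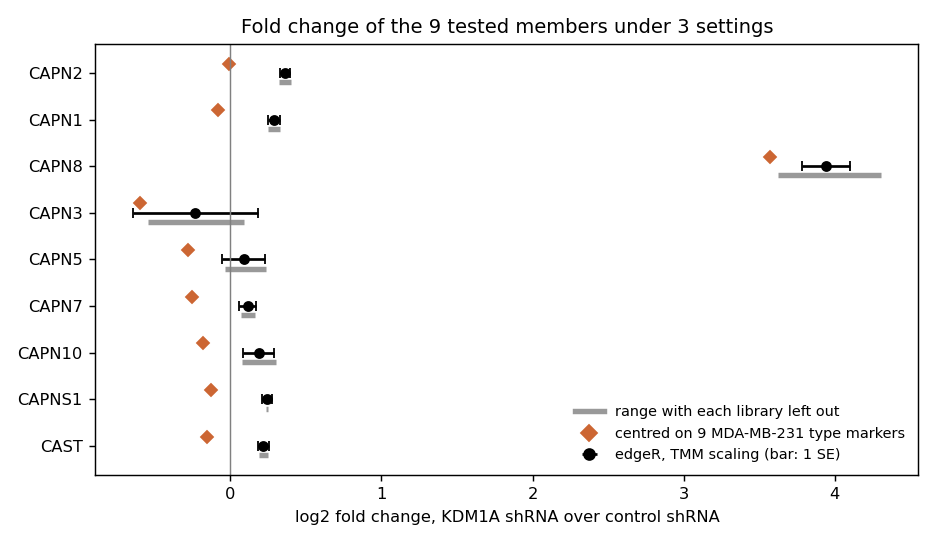
Log2 fold change of KDM1A shRNA over control shRNA for the 9 tested members: edgeR estimate with 1 SE (black), range with each library left out in turn (grey) and value after centring on 9 MDA-MB-231 type markers (orange). CAPN8 stays between 3.57 and 4.31, while the small differences of CAPN1, CAPN2, CAPNS1 and CAST fall to between −0.15 and −0.0091 after centring.

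Ratios between members within a library do not depend on that scaling. CAPN8 had 0.079 and 0.133 reads per 100 reads of CAPN2 in the controls and 1.26 and 1.24 after knockdown, and its share of the reads of the 8 large-subunit members went from 0.063% and 0.105% to 1.00% and 0.990%. CAPN1 had 18.6 and 20.6 reads per 100 of CAPN2 against 19.0 and 18.2, so the balance of the classical large subunits overlapped between the groups. CAPN2 made up 79.8% and 78.4% of large-subunit reads against 79.4% and 79.9%. The partner and the inhibitor were slightly lower relative to the large subunits. CAPNS1 had 27.2 and 28.4 reads per 100 reads of CAPN1 and CAPN2 together in the controls and 25.8 in each knockdown library. CAST had 33.0 and 32.8 against 30.4 and 29.8. Neither ratio overlapped between the groups, and no test was made.

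**Figure D4:**
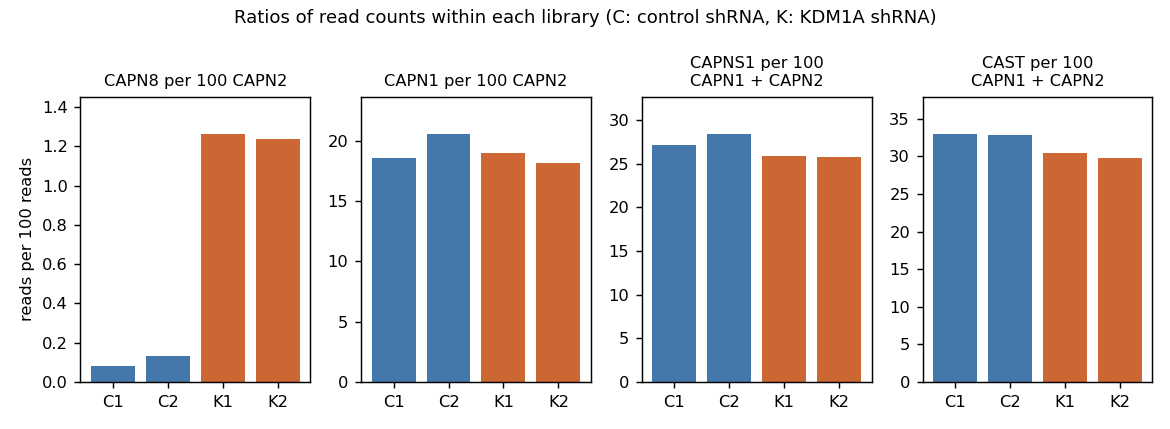
Reads of 1 member per 100 reads of another within each library (C1, C2: control shRNA; K1, K2: KDM1A shRNA), bars from 0, each panel with its own scale. CAPN8 rises from 0.079 and 0.133 to 1.26 and 1.24 per 100 CAPN2 reads, CAPN1 to CAPN2 overlaps between groups, and CAPNS1 and CAST are lower relative to CAPN1 and CAPN2.

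Levels were compared between genes per kilobase of the union of annotated exons. In the controls CAPN2 (129 ± 4.69 CPM per kb, SD, 2 libraries) and CAPNS1 (119 ± 0.82) led, followed by CAST (32.7 ± 0.92), CAPN1 (28.9 ± 1.07), CAPN7 (10.1 ± 0.42), CAPN10 (1.58 ± 0.18), CAPN5 (0.890 ± 0.12), CAPN8 (0.241 ± 0.080), CAPN3 (0.044 ± 0.012) and CAPN6 (0.012 ± 0.017). No neighbouring pair in this order overlapped between its library values, although CAPN6 rests on 2 reads. After knockdown CAPN8 reached 3.67 ± 0.035 CPM per kb and passed CAPN10 (1.81 and 1.79 in the 2 libraries) and CAPN5 (0.951 ± 0.041), the single change of order. CAPN8 then stood at the 6th place, below CAPN7 (10.9 ± 0.23). The order was the same in both groups with the length of the longest transcript.

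The other calpain genes were few in reads, and since the family's rise guided the choice of members their values too are a description. CAPN9, the gastric partner of CAPN8, went from 7 and 3 to 19 and 24 reads, a ratio of 4.41 with an exact 95% counting interval of 2.18 to 9.84. CAPN11, otherwise a testis gene, had 1 and 2 reads against 12 and 15, a ratio of 9.23 with an interval of 2.84 to 47.6. Both stayed below the level of CAPN8 in every knockdown library, at 0.793 and 0.930 CPM for CAPN9 and 0.501 and 0.581 CPM for CAPN11. CAPN12, a calpain of the skin and hair follicle, had 33 and 29 reads against 18 and 22 (−0.59, SE 0.29), and CAPN15, listed as SOLH, had 51.7 and 58.4 CPM against 53.4 and 58.9 CPM (0.03, SE 0.07). CAPN13, CAPN14, CAPNS2 and the calpain-like C6orf103 had at most 3 reads in any library. Of these 8 genes 4 passed the filter, CAPN9 and CAPN11 only through their knockdown libraries, so no count of calls is given for them. CAPN9 and CAPN11 were not among the genes tested with a minimum mean of 5 CPM, nor were CAPN3 and CAPN12.

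The genes around CAPN8 and CAPN2 had log2 fold changes well below that of CAPN8. TP53BP2, a p53-binding protein that lies beyond CAPN2, had 2129 and 1818 reads against 1900 and 2060 (0.04, SE 0.05, edgeR adjusted p = 0.49). C1orf65, the nearest gene on the other side of CAPN8, had at most 4 reads in any library. Within 1 Mb of CAPN8, CAPN2 aside, 15 of 19 genes were tested, of which 4 were called higher and 6 lower (27.3% and 28.8% of all tested genes were), with log2 fold changes of −0.83 to 1.45 and a median of 0.02. Over the nearest genes on each side of all members, 10 of 18 were tested, with 2 called higher and 2 lower, both shares below those of all genes. ERAP2, an aminopeptidase beside CAST, rose (0.58, SE 0.10, edgeR adjusted p = 0.00015), and the tubulin cofactor TBCB beside CAPNS1 rose (0.18, SE 0.06, edgeR adjusted p = 0.015). The TBCB call did not hold with control library 1 left out (adjusted p = 0.056) or with KDM1A shRNA library 1 left out (0.19). SH3BP5 beside CAPN7 was lower (−0.32, SE 0.09, edgeR adjusted p = 0.0077), which did not hold with KDM1A shRNA library 1 left out (adjusted p = 0.067). SPDYC beside CAPN1 had 11 and 15 reads against 0 and 0. It passed the filter only through the control libraries, so counts of lower calls that include it are a description. After centring on the MDA-MB-231 type markers 0 of these neighbours were called higher and 7 lower.

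The genes whose 4 library values lay closest to those of CAPN8, by Euclidean distance in log2 CPM with 0.1 CPM added, included PLCB4 (distance 0.361) and SEMA3E (1.07). PLCB4, a phospholipase C, had 30 and 30 reads against 417 and 456. SEMA3E, a secreted guidance ligand, had 35 and 34 against 252 and 310. They were named for this likeness, so their values are a description.

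Transcripts of proteins that calpains cut at adhesions and in the cytoskeleton mostly rose, by less than 2-fold: of 22 tested, 18 were called higher and 2 lower, against 27.3% and 28.8% of all tested genes, with a median log2 fold change of 0.26, but after centring on the MDA-MB-231 type markers 3 were called higher and 12 lower. Non-muscle myosin MYH9 rose from 775 to 1231 CPM (0.67, SE 0.03, edgeR adjusted p = 4.1e-10) and the spectrin gene SPTAN1, whose calpain fragments are a common readout of activity, from 300 to 462 CPM (0.63, SE 0.04). The integrin subunit ITGB3 was lower, at 18.6 ± 0.58 CPM in the controls and 7.54 ± 0.084 CPM after knockdown (−1.30, SE 0.10, edgeR adjusted p = 3.8e-08). These are transcript levels, and cleavage of the proteins was not measured.

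Substrates in signalling and cell death were divided, with 8 called higher and 4 lower of 20 tested and a median of 0.06. That is near the 56.1% called over all genes (27.3% higher, 28.8% lower), and after the centring 1 was higher and 15 lower. Without KDM1A shRNA library 1 the number called higher was 4, and without library 2 it was 5. The kinase gene PRKCA rose from 126 to 201 CPM (0.67, SE 0.04, edgeR adjusted p = 6.1e-09). PARP1, the DNA damage sensor, fell from 368 to 249 CPM (−0.56, SE 0.04), BID, which calpain can cut into a death-promoting form, from 63.4 to 41.5 CPM (−0.61, SE 0.05), and NFKBIA, the inhibitor of NF-kB, from 184 to 147 CPM (−0.32, SE 0.04).

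Calpain activity depends on calcium, and of the genes for calcium entry, stores and export 22 of 24 were tested, with 12 called higher, 5 lower and a median of 0.16, beside 27.3% higher and 28.8% lower over all genes. After the centring 1 was higher and 15 lower. The calmodulin gene CALM3 rose, with 394 CPM in the controls and 550 CPM after knockdown (0.48, SE 0.04, edgeR adjusted p = 5.4e-08). The store release channel ITPR3 rose from 621 to 773 CPM (0.32, SE 0.03), and STIM1, the sensor that opens the store-operated channels, from 82.4 to 110 CPM (0.42, SE 0.05). The 5 called lower were the store release channel ITPR2 (−0.41, SE 0.08), the store-operated channel ORAI3 (−0.42, SE 0.06), TRPC1 (−0.48), TRPV4 (−0.92) and ATP2A3 (−0.90). The calls of STIM1 and ITPR3 were lost after the centring (log2 fold changes of 0.048 and −0.055).

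Genes of gastric and intestinal mucous cells, the known site of CAPN8, moved in both directions. Of 20 genes 19 were listed and 8 passed the filter, with a median log2 fold change of −0.23 that includes TSPAN8 and TFF1. No count of calls is given, because TSPAN8 passed only through its knockdown libraries. TFF1 would not have passed through the knockdown libraries alone (16 and 9 reads). In this list 4 genes had 0 reads in every library, among them GKN1, which marks the stomach surface. TSPAN8, a tetraspanin, had 10 and 2 reads against 204 and 192 (log2 fold change 5.05). Its value was 6.51 without control library 1 and 4.40 without control library 2. The mucin MUC1 rose from 101 to 185 CPM (0.88, SE 0.04), as did the disulfide isomerase AGR2 from 305 to 419 CPM (0.46, SE 0.04). VSIG1, an adhesion molecule of the stomach, was lower, at 44.1 against 20.7 CPM (−1.09, SE 0.07, edgeR adjusted p = 5.2e-09). The trefoil factor genes TFF1 (log2 fold change −2.01), TFF2 (−0.58, SE 0.14) and TFF3 (−0.43, SE 0.07) were called lower too. TFF2 fell from 8.92 to 5.99 CPM and TFF3 from 31.7 to 23.4 CPM. SPDEF, the remaining tested gene of the list, was not called (−0.03, SE 0.05). In bulk libraries fewer cells of a type and less RNA per cell cannot be told apart, so a rise of CAPN8 or TSPAN8 in every cell and in a few cells give the same reads.

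**Figure D5:**
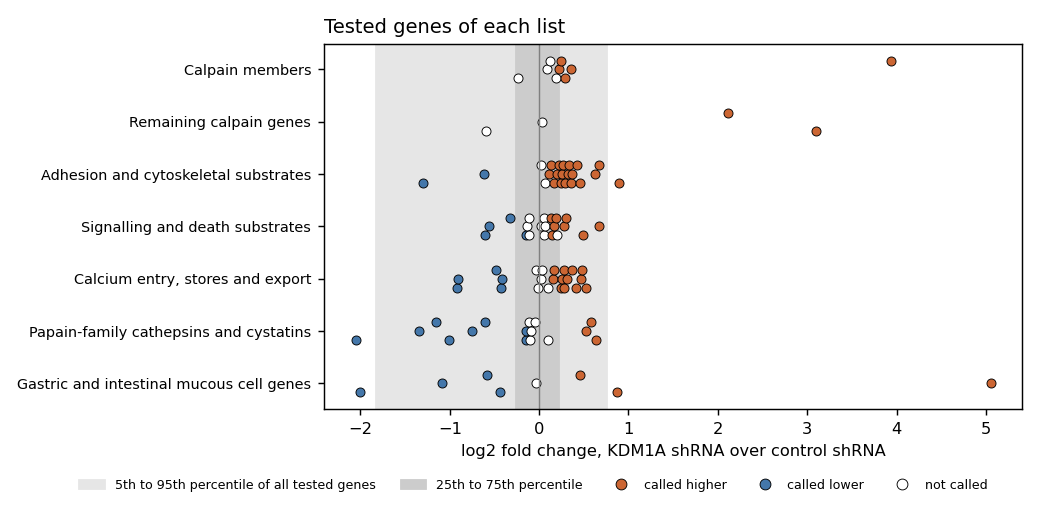
Log2 fold change of KDM1A shRNA over control shRNA for each tested gene of 7 lists, 1 point per gene, coloured by its edgeR call; shading spans the 5th to 95th and 25th to 75th percentiles of all 14012 tested genes. CAPN8 (3.94), CAPN9, CAPN11 and TSPAN8 (5.05) lie beyond the 95th percentile, and the other tested calpain genes lie between the 5th and 95th percentiles.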

How the data were processed

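RNA sequencing measured gene expression in 4 libraries. The deposited files hold whole-number read counts per gene, which the authors made with CASAVA 1.8.2, TopHat2 2.0.8b and HTSeq on hg19, per the submitters' processing notes, with no normalization. The 5 summary lines of HTSeq (38.9% to 41.0% of each file's total) entered neither library sizes nor tests. Reads with more than 1 alignment were set aside, so values of near-identical copies are uncertain. All gene counts were fitted with edgeR 4.0.16 in R 4.3.3 (TMM, filterByExpr with a minimum count of 10 and total of 15, quasi-likelihood F-test, with no term but group). Benjamini-Hochberg adjustment ran over 14012 genes, with a threshold of 0.05. SE is the absolute log2 fold change over the square root of F, and fold changes are KDM1A shRNA over control. Exact permutation tests were not used, because with 2 libraries a group the smallest two-sided p is 0.333.

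The members and lists were chosen with earlier results of these data known. Named genes are all calpains, up to 4 genes per other list with the smallest p, nearest neighbours, the 3 genes most like CAPN8, KDM1A and the 9p21 markers. Some genes that this rule takes are left out of the text. Cell type markers and some genes of the mucous cell and calcium lists are named beyond it. Positions and lengths are from GENCODE v44 lifted to GRCh37, which matched 91.8% of the 23228 symbols. On simulated counts for this comparison (14012 genes, 200 changed) the test recovered 76% of 1.25-fold, 78% of 1.5-fold, 88% of 2-fold and 98% of 4-fold changes, with 12 false calls among 182. The simulation changed far fewer genes than the 7861 (56.1%) called in the data, so these rates need not hold for the data. Alternatives were other normalizations, filters and tools (DESeq2 1.42.0, limma-voom 3.58.1), a replicate block, each library left out, a fit without genes lower by 16-fold or more, and centring on MDA-MB-231 type markers.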

Additional observations from a re-analysis of the deposited data

How the results depend on the processing

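The number of calpain members called higher was 5 or 6, and that called lower 0, under every alternative run except centring on the MDA-MB-231 type markers, where 1 was higher and 3 lower. CAPN8 kept its direction and call throughout (3.57 to 4.31). Centring made the calls over all genes 971 higher and 9798 lower (3828 and 4033 otherwise), and put CAPN12 (−0.96) and SOLH among the lower. It gave 3 and 12 adhesion substrates higher and lower, 1 and 15 signalling substrates, 1 and 15 calcium genes, 13 cathepsins and cystatins lower, and 0 and 7 neighbours. It turned the sign of CAPN1 (−0.081), CAPN2 (−0.0091), CAPN5 (−0.28), CAPN7 (−0.25), CAPN10 (−0.18), CAPNS1 (−0.13), CAST (−0.15), SOLH (−0.34), ITPR3 (−0.055), TP53BP2 (−0.33), GANC (−0.29), RNPEPL1 (−0.30) and TBCB (−0.19), by construction a downward shift of 0.37. A minimum mean of 5 CPM, with fewer genes tested, left 1 adhesion substrate, 3 calcium genes, 5 cathepsins and cystatins and 1 neighbour lower. Adhesion substrates called lower were 1 with library size alone, DESeq2 or limma-voom, and neighbours called lower were 1 in DESeq2 and in the fit that drops genes lower by 16-fold or more; where no construction shows it, the cause was not tested. With 1 library left out, where the lone library of a group is assumed to vary like the other group, adhesion substrates called lower ranged from 1 to 2, signalling substrates higher from 4 to 10, cathepsins and cystatins lower from 5 to 8, neighbours higher from 1 to 2 and lower from 1 to 2. Signs turned for CAPN3 (−0.54 to 0.089; positive without control library 1, and 0.045 without KDM1A shRNA library 2), SOLH (−0.056 to 0.12; negative without control library 1, and −0.041 without KDM1A shRNA library 2), CAPN5 (−0.036 without control library 2, up to 0.24), GANC (−0.093 without KDM1A shRNA library 1, up to 0.24) and MYO7A (−0.43 to 0.18, the latter without KDM1A shRNA library 1). Replicate numbers share only a number (correlation of deviations of same-numbered libraries 0.014); a replicate block gave 3978 genes higher and 4164 lower and 5 members higher. Depth limits CAPN3, CAPN6, CAPN9 and CAPN11.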

Other observations

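Cathepsins, the lysosomal relatives of papain, and their cystatin inhibitors were more often lower than higher. Of 17 cathepsin and cystatin genes 16 were tested, with 3 called higher, 8 lower and a median log2 fold change of −0.13 (27.3% and 28.8% of all tested genes were called higher and lower). The lower count includes CTSW, which passed the filter only through the control libraries (28 and 14 reads against 8 and 8). After centring on the MDA-MB-231 type markers 2 were called higher and 13 lower. The lysosomal proteases CTSZ (301 to 434 CPM; 0.53, SE 0.04, edgeR adjusted p = 1.6e-08) and CTSC (146 to 218 CPM; 0.58, SE 0.04) rose, while CTSL2 fell from 127 and 108 reads to 26 and 29 (−2.05, SE 0.20, edgeR adjusted p = 7.6e-07). The secreted inhibitor CST4 fell from 27.0 ± 2.00 to 12.2 ± 0.81 CPM (−1.15, SE 0.09). Without KDM1A shRNA library 1 or 2 the number called lower was 5.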
